A study of Mus musculus with 4 samples.

Results

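The genes described here are the keratins and the proteins that fill and harden hair and the outer skin. They comprise the protein-coding genes whose symbols begin with Krt and a number, Krtap, Lce and a number or Sprr and a number, together with Tchh, Flg, Rptn, Hrnr, Ivl and Lor. By this rule 150 of 21887 protein-coding genes were taken from RefSeq (assembly GRCm38.p6, the coordinates of mm10), leaving out the mitochondrial genome. They were 53 Krt, 56 Krtap, 21 Lce, 14 Sprr and the 6 genes named singly. The members were chosen by name, and the set was picked with the peaks at these genes known, so the counts below are a description and carry no test.

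The study looked for chromatin sites of Fbxl10, a histone demethylase also called Kdm2b, after overproduction. The induced group was mouse embryonic fibroblasts (MEFs) that carried HA-tagged Fbxl10 and received 1 µg/ml doxycycline for 48 hours. The non-induced group carried the same HA-tagged Fbxl10 without doxycycline. Chromatin was precipitated through the HA tag and sequenced (ChIP-seq), and 1 list of peaks from each group was analysed. The labels do not name the promoter that drives the transgene or the number of clones or embryos behind a library. As each condition has 1 list, nothing could be checked between replicates, and the lists hold no expression by which the label MEF could be checked. The induced list held 5497 peaks with a median score of 66.6, and the non-induced list 10532 with a median of 60.2. The score is the value that the authors' peak caller gave each peak; it was 50 or more in both lists, and whether the lists share a scale was not tested. The depth of the libraries is unknown, and intervals are exact 95% binomial intervals (Clopper-Pearson) that cover counting error only.

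Keratins are the intermediate filaments of epithelial cells, and each filament pairs a type I with a type II keratin. Keratin-associated proteins (Krtap) embed keratin filaments in the hair shaft. Small proline-rich proteins (Sprr), late cornified envelope proteins (Lce), involucrin (Ivl) and loricrin (Lor) are cross-linked into the envelope of dying keratinocytes, while filaggrin (Flg), hornerin (Hrnr), repetin (Rptn) and trichohyalin (Tchh) belong to the S100 fused-type family. Most of these genes lie in a few dense clusters and are used in epithelia rather than in fibroblasts. Fbxl10 carries a CXXC zinc finger that binds unmethylated CpG, so the CpG content of the promoters is given beside the peaks.

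The promoters of a few members are shown first, because their CpG content is compared with that of other genes below. Each is the RefSeq window from 250 bases before to 50 bases after the start (GRCm38.p6), written 5′ to 3′ on the strand of the gene, with every CpG in capitals. Those of the members with a peak within 5 kb in the induced list are Tchh (chr3:93442080-93442379, plus strand) and Lce1m (chr3:93019012-93019311, minus strand). The other member with such a peak was Krt222.
Tchh: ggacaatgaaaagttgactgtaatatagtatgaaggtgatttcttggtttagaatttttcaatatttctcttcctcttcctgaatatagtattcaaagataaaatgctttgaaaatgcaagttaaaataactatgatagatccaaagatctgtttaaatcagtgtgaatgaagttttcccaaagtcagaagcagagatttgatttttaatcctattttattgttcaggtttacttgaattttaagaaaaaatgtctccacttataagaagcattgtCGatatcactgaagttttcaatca
Lce1m: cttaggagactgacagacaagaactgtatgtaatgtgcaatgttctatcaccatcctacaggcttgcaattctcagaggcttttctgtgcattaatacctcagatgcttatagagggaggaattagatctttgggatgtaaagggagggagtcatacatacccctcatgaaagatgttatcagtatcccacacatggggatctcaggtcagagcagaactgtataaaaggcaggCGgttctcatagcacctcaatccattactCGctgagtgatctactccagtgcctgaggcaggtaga
The Tchh window held 1 CpG and a GC content of 28.7%. The Lce1m window held 2 CpG and a GC content of 45%. No induced peak overlapped either window.

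The members with a peak within 5 kb in the non-induced list were Krtap27-1 (chr16:88671675-88671974, minus strand) and Lce3e (chr3:92966811-92967110, plus strand).
Krtap27-1: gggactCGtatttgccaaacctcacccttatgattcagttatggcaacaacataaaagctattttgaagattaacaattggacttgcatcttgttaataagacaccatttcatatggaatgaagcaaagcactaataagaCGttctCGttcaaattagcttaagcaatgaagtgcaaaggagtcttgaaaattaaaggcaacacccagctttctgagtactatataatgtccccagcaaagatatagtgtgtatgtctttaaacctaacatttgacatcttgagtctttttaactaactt
Lce3e: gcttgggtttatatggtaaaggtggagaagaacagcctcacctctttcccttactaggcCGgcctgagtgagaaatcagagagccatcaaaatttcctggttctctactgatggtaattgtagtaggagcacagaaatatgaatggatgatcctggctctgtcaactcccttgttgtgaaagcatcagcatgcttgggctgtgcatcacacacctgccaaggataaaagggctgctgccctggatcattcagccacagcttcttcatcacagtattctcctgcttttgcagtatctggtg
The Krtap27-1 window held 3 CpG and the Lce3e window 1.

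For contrast, the reference keratins with the most CpG and no peak are shown. They are Krt7 (chr15:101412153-101412452, plus strand) and Krt18 (chr15:102027966-102028265, plus strand) of simple epithelia, and Krt5 (chr15:101712856-101713155, minus strand) of basal keratinocytes.
Krt7: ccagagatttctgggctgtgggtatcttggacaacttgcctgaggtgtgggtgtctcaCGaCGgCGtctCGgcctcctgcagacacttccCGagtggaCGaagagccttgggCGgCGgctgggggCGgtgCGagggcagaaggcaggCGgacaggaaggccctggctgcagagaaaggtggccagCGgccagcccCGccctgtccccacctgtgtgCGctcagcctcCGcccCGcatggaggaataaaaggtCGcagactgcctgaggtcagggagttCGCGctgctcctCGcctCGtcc
Krt18: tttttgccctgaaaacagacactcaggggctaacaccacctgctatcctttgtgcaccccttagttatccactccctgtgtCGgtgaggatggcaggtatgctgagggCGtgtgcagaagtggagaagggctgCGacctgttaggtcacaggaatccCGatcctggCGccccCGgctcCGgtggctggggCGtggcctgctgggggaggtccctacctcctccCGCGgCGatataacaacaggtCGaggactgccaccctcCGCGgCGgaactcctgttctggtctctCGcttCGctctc
Krt5: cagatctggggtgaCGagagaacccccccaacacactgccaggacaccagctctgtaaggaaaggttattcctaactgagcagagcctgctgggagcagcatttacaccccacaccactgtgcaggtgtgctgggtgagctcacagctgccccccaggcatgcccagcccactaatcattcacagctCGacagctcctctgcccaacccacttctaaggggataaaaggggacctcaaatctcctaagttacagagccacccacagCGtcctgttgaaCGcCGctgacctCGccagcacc
Krt7 held 21 CpG, Krt18 held 17 and Krt5 held 6, a number that Krt8 and Krt20 also reached. Krt7 was the only member with a window of more than 20 CpG. These keratins were picked for their CpG and do not stand for the members without an induced peak, whose 126 windows had a median of 2 CpG.

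Nearly all members lacked a peak under either condition. After induction 1 of 150 members, Tchh, had a peak within 1 kb of the gene or inside it (0.667%, interval 0.0169 to 3.66), where 18.5% of all protein-coding genes had one. In the non-induced list 1 member, Krtap27-1, had such a peak (0.667%, interval 0.0169 to 3.66), where 10.8% of all genes had one. Within 5 kb the induced list marked 3 members (2%, interval 0.414 to 5.73), Tchh, Krt222 and Lce1m, against 21.4% of all genes. The non-induced list marked 2 (1.33%, interval 0.162 to 4.73), Krtap27-1 and Lce3e, against 12.7% of all genes. No member was marked under both conditions. With 3 and 2 members marked within 5 kb this says little, and the share of all genes marked in both lists was not counted. Within 500 bp or inside, the counts were again 1 induced (Tchh) and 1 non-induced (Krtap27-1), against 18% and 10.5% of all genes.

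Members are short, with a median length of 1.67 kb against 17.3 kb for the other genes, and a short gene has less room for a peak inside it. Set beside the 7926 genes up to 10 kb long, a limit chosen after the data were seen, the shares in the non-induced list lay close together. Of the 136 members of that length 0.735% had an induced peak within 1 kb or inside, against 12.3% of all such genes. For the non-induced list the shares were 0.735% and 1.94%. At gene borders alone, meaning within 1 kb of a gene start or end, the members' share was 0.667% in the induced list, against 13.4% of all genes. In the non-induced list it was 0.667%, against 1.59%, which lies within the members' interval. Within 5 kb of a border the shares were 2% and 18.4% in the induced list, and 1.33% and 5.36% in the non-induced list.

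**Figure D1:**
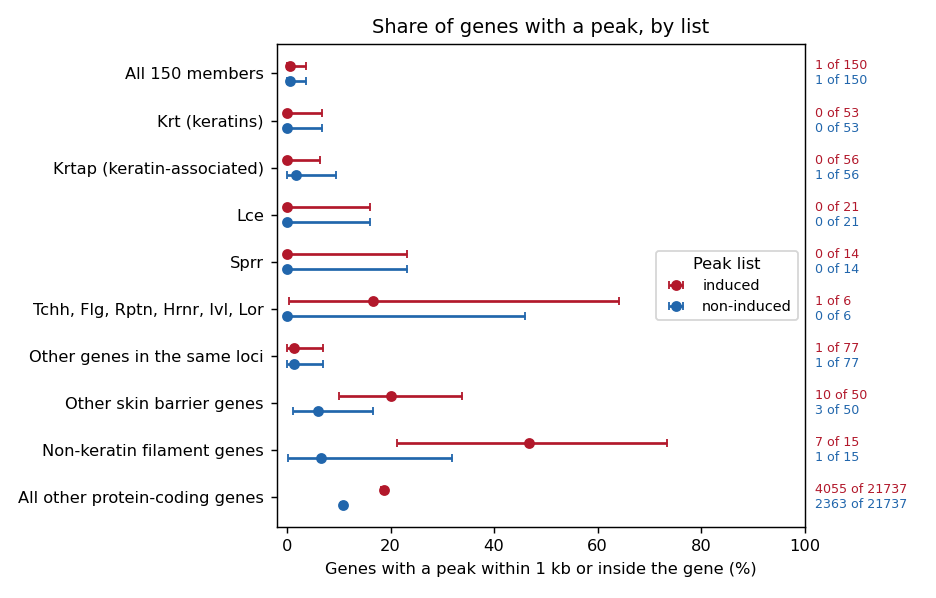
Share of genes with a peak within 1 kb or inside the gene (x axis, percent) in the induced list (red) and the non-induced list (blue), with exact 95% intervals; rows are gene sets, and counts stand at the right. The 4 families Krt, Krtap, Lce and Sprr had no induced peak in that window, while 7 of 15 non-keratin filament genes had one.

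By family, the keratins had 0 of 53 members with a peak within 1 kb or inside in the induced list and 0 of 53 in the non-induced list; each count allows a share of up to 5.66%. No keratin of the reference set (well-known epithelial keratins, chosen by name) was within 5 kb of a peak: basal Krt5 lay 360 kb from the nearest induced peak and 642 kb from the nearest non-induced one, and its partner Krt14 109 kb and 17.7 kb. Suprabasal Krt1 lay 223 kb and 504 kb away, and its partner Krt10 154 kb and 357 kb. The simple epithelial pair Krt8 (69 kb and 351 kb) and Krt18 (41.3 kb and 323 kb) and the ductal keratin Krt7 (145 kb and 927 kb) lay no closer than 41.3 kb to a peak of either list. Krt17, which is induced in wounded skin, lay 55.7 kb from an induced and 30.3 kb from a non-induced peak.

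Krt222, at the edge of the type I cluster on chromosome 11 (99232761 to 99244147), was the keratin closest to an induced peak. That peak (99230031 to 99231314, score 134) ended 1.45 kb outside Krt222 and overlapped the neighbouring gene Smarce1, which encodes a subunit of the BAF chromatin remodeller. It therefore marks Krt222 within 5 kb alone, and the nearest non-induced peak lay 510 kb away.

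Keratin-associated genes had 0 of 56 members with an induced peak within 1 kb or inside, which allows up to 5.36%. In the non-induced list 1 of 56 did (1.79%, interval 0.0452 to 9.55). This was Krtap27-1 on chromosome 16 (88671046 to 88671724, gene 239933), whose peak (88672094 to 88672621) lay 370 bp upstream of the gene, which is on the minus strand. With a score of 59.0 this peak ranked 5873rd of 10532. The nearest induced peak was 1102 kb away.

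The envelope families had no peak within 1 kb in either list: 0 of 21 Lce genes, which allows up to 14.3%, and 0 of 14 Sprr genes, which allows up to 21.4%. Lce1m lay 3.29 kb from an induced peak of score 53.8, which overlapped the neighbouring gene Crct1. Lce3e lay 4.65 kb from a non-induced peak of score 70.7. Among the genes named singly, Ivl lay 296 kb from the nearest induced and 192 kb from the nearest non-induced peak, Lor 155 kb and 147 kb, and Flg 150 kb and 152 kb. Hrnr lay 110 kb and 198 kb away, and Rptn 43.9 kb and 272 kb. These distances leave Tchh as the only member of this group with a peak.

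Tchh encodes trichohyalin, the protein that hardens the inner root sheath of the hair follicle. The gene (chromosome 3, 93442330 to 93449077, gene 99681, plus strand, 6748 bp) held 2 induced peaks, both inside it. The first (93443335 to 93445224) was 1890 bp wide with a score of 148, and the second (93445233 to 93448142) was 2910 bp wide with a score of 404. They were separated by 8 bp and together covered 4800 bp, or 71.1% of the gene. Including Tchh, 13 protein-coding genes had as many or more bases covered by induced peaks, and 35 had as large a percent of the gene covered.

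The higher peak ranked 12th by score and 41st by width among the 5497 induced peaks, whose median width was 758 bp. The lower peak ranked 386th by score and 125th by width. Pairs of neighbouring peaks no more than 10 bp apart numbered 6 in the induced list. Neither Tchh peak overlapped a non-induced peak, and the nearest non-induced peak was 321 kb from the gene. The share of all induced peaks that overlap the other list was not counted, so this cannot be read as particular to Tchh.

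Both peaks lay away from the start of Tchh. The first began 1005 bp after the start, just outside the 1 kb window around it, and the second ended 935 bp before the end of the gene. Tchh therefore counts as marked at a border through its end and not through its start. Of 3265 genes with a promoter window and an induced peak within 1 kb or inside, 74.8% had a peak within 1 kb of a start site, and Tchh is among the other 25.2%. Near the start site itself, 0 of the 127 members with a window had an induced peak within 1 kb, which allows up to 2.36%, against 14% of the 17492 genes with a window, and 1 (Krtap27-1) had a non-induced peak, against 0.972% of those genes. On the window, no member had a peak of either list, against 10.1% of the genes with a window induced and 0.263% non-induced. Exons were not used here, so the peaks cannot be placed on coding sequence.

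**Figure D2:**
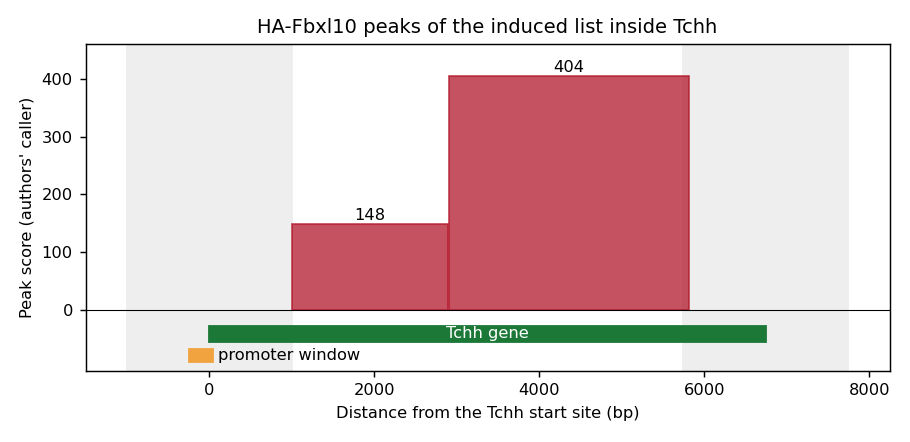
Induced peaks along Tchh: the x axis is the distance from the start site in bp, bars span each peak with its score as height, the green bar is the gene, the orange bar the promoter window, and grey bands mark 1 kb around each gene end. The peaks, scoring 148 and 404, fill the middle of the gene and stop short of the promoter.

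The members fell into 7 loci, and 4 of these held most of them. The type II keratin cluster on chromosome 15 (101348315 to 102032026), with 26 members including the type I gene Krt18, held 0 induced and 0 non-induced peaks over 684 kb. The type I and Krtap cluster on chromosome 11 (99232761 to 100269951, 50 members) held 0 induced peaks and 2 non-induced peaks over 1037 kb. The Krtap cluster on chromosome 16 (88610709 to 89571183, 24 members) held 0 induced and 5 non-induced peaks over 960 kb. The chromosome 3 locus, known as the epidermal differentiation complex (92080271 to 93449077, 41 members), held 5 induced and 6 non-induced peaks over 1369 kb. Of those 5 induced peaks, 2 were the ones inside Tchh at its far end.

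Of the smaller loci, the Krtap5 genes on chromosome 7 (5 members) had 1 induced peak of score 118, which lay 11.3 kb from Krtap5-1, and 0 non-induced peaks. The locus on chromosome 10 (3 members) and the single Krtap gene on chromosome 1 had none in either list. Summed over the loci there were 1.40 induced peaks per Mb, against 2.24 per Mb on the same chromosomes as a whole, and 3.02 non-induced peaks per Mb, against 4.39. By these rates the loci did not all lie on the same side of their chromosomes, but the counts are too small to tell the sides apart. The chromosome 3 locus had 3.65 induced peaks per Mb, against 2.09 for chromosome 3, and the chromosome 7 locus, with 1 peak, 7.69 against 2.07. The chromosome 11, 15 and 16 loci had 0 induced peaks per Mb, against 3.31, 2.36 and 1.91 for their chromosomes. In the non-induced list the rate was 4.38 against 5.88 for chromosome 3, 1.93 against 3.30 for chromosome 11, 0 against 3.78 for chromosome 15 and 5.21 against 5.31 for chromosome 16. The loci are dense in genes: that on chromosome 11 had 62.7 protein-coding genes per Mb, against 13.2 for the chromosome. The peaks in the loci numbered 6 and 13, so these rates rest on few peaks.

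**Figure D3:**
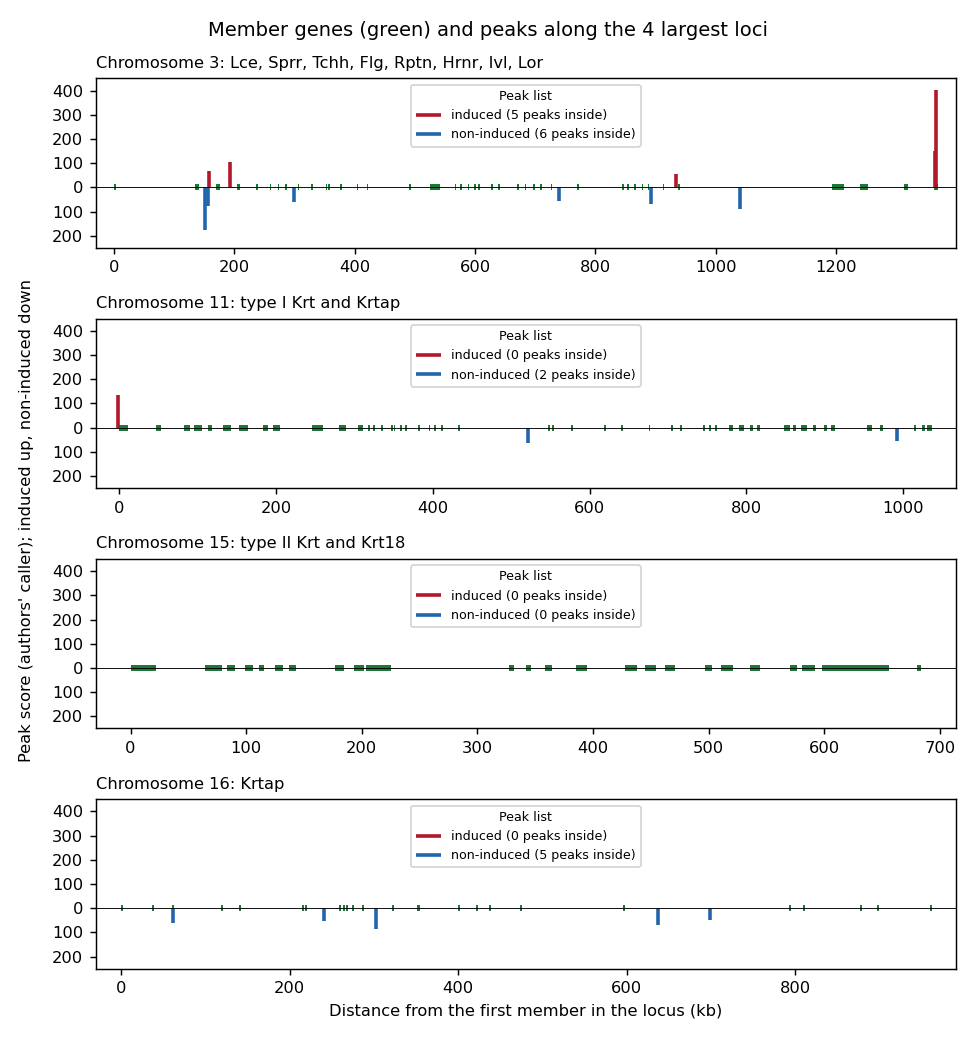
Member genes (green) and peaks along the 4 largest loci: the x axis is the distance from the first member in kb, and the height of each line is the peak score, upward for the induced (red) and downward for the non-induced list (blue). The highest line is the Tchh peak of score 404, and the chromosome 15 panel has no peak in either list.

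Whole clusters lay between neighbouring induced peaks. The whole chromosome 11 cluster lay in a stretch of 1085 kb, the 24th longest of 403 on that chromosome, between the Smarce1 peak and a peak 2.44 kb from Eif1. The chromosome 15 cluster lay in a stretch of 806 kb, the 38th of 244, and the chromosome 16 cluster in one of 2761 kb, the 6th of 180. In the non-induced list the chromosome 15 cluster lay in a stretch of 1999 kb, the third longest of 391. The median stretch between neighbouring induced peaks was 112 kb, 130 kb and 233 kb on chromosomes 11, 15 and 16. A long region without a peak can lie only in a long stretch, so the ranks and medians add no separate result.

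By the median, members lay farther from induced peaks than genes in general. The median distance to the nearest induced peak was 248 kb for members, against 87.1 kb for the other genes; to the nearest non-induced peak it was 139 kb, against 138 kb. Within 50 kb of an induced peak lay 10% of members and 40.2% of all genes, and within 50 kb of a non-induced peak 26.7% and 29.2%. At larger distances the order turned: within 500 kb of an induced peak lay 84.7% of members and 81.6% of all genes. Within 200 kb of a non-induced peak lay 65.3% and 59.8%. The families differed: the median distance to an induced peak was 405 kb for Krtap, 235 kb for Lce, 195 kb for Krt and 101 kb for Sprr genes. For the non-induced list it was 115 kb for Krtap, 46.7 kb for Lce, 415 kb for Krt and 43.1 kb for Sprr genes. Neighbouring members often share their nearest peak, so these distances are not independent.

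**Figure D4:**
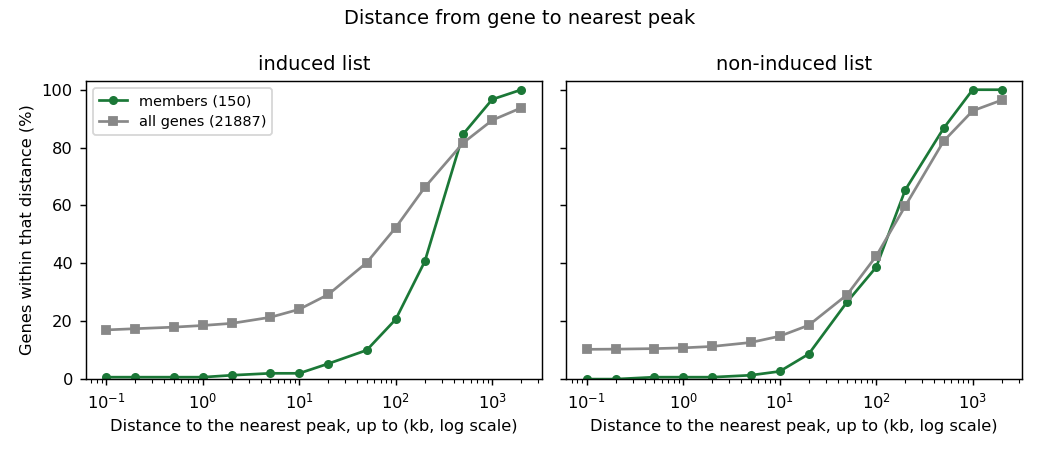
Cumulative share of genes (y axis, percent) within a distance of the nearest peak (x axis, kb, log scale) for the induced list (left) and the non-induced list (right); green circles are the 150 members and grey squares all 21887 genes. In the induced list the members lie below all genes up to 200 kb (40.7% against 66.3% there) and above them at 500 kb (84.7% against 81.6%). In the non-induced list the 2 curves lie closer together (38.7% against 42.5% at 100 kb), and the members lie above at 200 kb (65.3% against 59.8%).

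The promoters of the members were poor in CpG. A RefSeq promoter window was matched for 127 of the 150 members and for 17365 of the 21737 other genes (79.9%), so the comparison leaves out the genes without one; where a gene had several windows, the one with the most CpG was used. The median was 2 CpG per window in members (quartiles 1 and 4), against 15 in the other genes (4 and 25). A CG was present on 108 of the 127 member windows (85.0%), against 95.1% of the other genes' windows, and 84.3% of members had 5 or fewer, against 30.5%. By family the median was 2 in Krtap, 1 in Lce and 1 in Sprr genes. The 36 Krt windows had a median of 5 CpG (quartiles 3 and 6), but with windows matched for 36 of 53 Krt genes (67.9%) this value does not stand for the family. The highest count in each other family was 9 for Krtap24-1, 5 for Sprr2d and 4 for Lce1c, and among the genes named singly 2 for Flg and Rptn.

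The letters TATAAA were more frequent in the member promoters than in the others. Searched on both strands and anywhere in the window, they were in a window of 80 of 127 members (63.0%), against 14.4% of the other genes. They were found in 82.4% of Krtap, 71.4% of Sprr and 20% of Lce genes with a window, in 52.8% of the 36 Krt windows and in 83.3% of the 6 genes named singly. A match is a run of letters at any place in the window and not a shown binding site. The median GC content was 45.3% in member windows, against 57.3% in the others, and its part in these shares was not tested. Among the sequences above Lce1m held these letters as written and Lce3e on the opposite strand.

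Across all genes with a window, induced peaks went with CpG. Of genes with 0 to 2 CpG 1.73% (interval 1.3 to 2.24) had an induced peak within 1 kb or inside, against 31.4% (30.2 to 32.5) of those with 21 or more. For non-induced peaks the shares were 5.90% (5.11 to 6.78) and 13.9% (13 to 14.7). These shares count peaks anywhere inside the gene. On the promoter window itself, 0.0314% and 18.8% of these classes had an induced peak. For non-induced peaks the shares on the window were 0.345% and 0.360%, so they did not rise with CpG between these classes. Of the 127 members, 69 were in the lowest class, and 1 of these 69, Tchh, had an induced peak. In the next class, with 3 to 5 CpG, 5.69% of all genes and 0 of 38 members had an induced peak. In the class of 6 to 10 CpG the shares were 11.5% of all genes and 0 of 17 members. Only 3 members had 11 or more CpG: Krt7, Krt18 and Krt72, none with a peak in either list. What part the CpG content of the promoters has in the low counts was not tested.

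**Figure D5:**
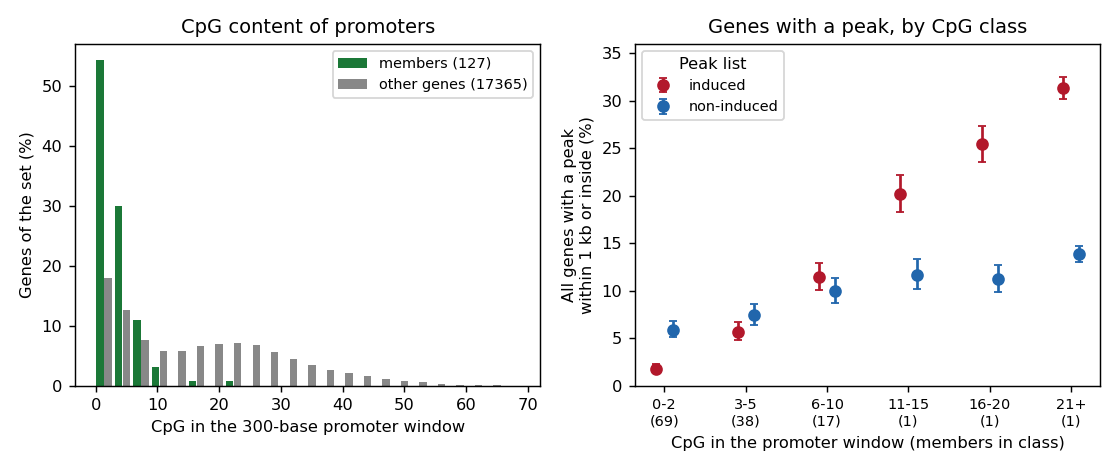
Left, share of the 127 members (green) and of the 17365 other genes (grey) by the number of CpG in the promoter window (x axis); right, share of all genes with a peak within 1 kb or inside by CpG class, with exact 95% intervals, for the induced (red) and non-induced list (blue), and the number of members in each class in brackets. The lowest class holds 69 members, where 1.73% of all genes had an induced peak.

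Genes that lie among the members but are not members were rarely marked too. Of 77 such protein-coding genes 1 had an induced peak within 1 kb or inside (1.3%, interval 0.0329 to 7.02), Crct1, and 1 a non-induced peak, Gm35091, against 18.5% and 10.8% of all genes. These genes were short too, with a median length of 0.728 kb. Of all genes up to 10 kb long 12.3% had an induced and 1.94% a non-induced peak, so only their induced share lay far below that of short genes. Their promoter windows had a median of 1 CpG, and 75.7% held TATAAA, against 82.4% of Krtap windows. Of the 77 genes, 34 lay in the chromosome 16 Krtap cluster and 15 in the chromosome 11 cluster. Whether some are Krtap-like genes that the symbol rule left out was not checked, so they may not be a separate set.

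Skin barrier genes outside the rule had a share near that of all genes in the induced list. Of 50 such genes, a list of transglutaminases, desmosome and envelope linkers, lipid enzymes, proteases, transcription factors and further proteins of the chromosome 3 complex, 10 (20%, interval 10.0 to 33.7) had an induced peak, against 18.5% of all genes. The highest scores were at the transcription factors Lef1 (133) and Gata3 (131), the envelope linker Evpl (93.9), the transcription factors Msx2 (76.7) and Barx2 (75.4), the fatty acid elongase Elovl4 (64.8), the junction protein Jup (54.3) and the lipoxygenase Aloxe3 (51.9). Without induction 3 were marked (6%, interval 1.25 to 16.5), against 10.8% of all genes: Lef1 (78.9), Gata3 (58.6) and the desmosome protein Pkp2 (56.7). Of the 8 genes of this list that belong to the chromosome 3 complex, none had a peak within 1 kb or inside in either list.

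Of 15 intermediate filament genes other than keratins, 7 (46.7%, interval 21.3 to 73.4) had an induced peak, against 18.5% of all genes. In the non-induced list 1 (6.67%, interval 0.169 to 31.9) had one, against 10.8%. The induced peaks were at the neural progenitor filament Nes (342), the lamins Lmnb1 (193), Lmnb2 (70.9) and Lmna (55.3), the glial filament Gfap (69.7), the fibroblast filament Vim (51.0) and the neuronal filament Ina (50). The non-induced peak was at Synm (59.4). The induced peaks at Lmna, Vim and Ina scored below the joint median of both lists (61.6), and that at Ina had the lowest score of the induced list. Shares at higher scores were not recomputed for this list or for the skin barrier list. The 11 matched windows of the 15 genes had a median of 11 CpG, which does not stand for the whole list. No test of the difference between these lists and the members was made.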

How the data were processed

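ChIP-seq peak lists of HA-tagged Fbxl10 in MEFs with and without doxycycline were analysed, 1 list per condition. The precipitation used 5 µg of HA antibody on 7 µg of chromatin, per the labels. Although 3 independent samples are mentioned in the labels, no link from them to a list is given. The submitters' processing notes name Bowtie2 and mm10. The names of the deposited peaks point to MACS as the caller; no source used here gives its version, threshold, pooling or use of the input libraries. Each deposited list gives positions and a score written by the authors' caller, used only to rank, class and filter peaks. The lists carry no counts, so depth is unknown. Nor is it stated how reads from near-identical gene copies were placed. The lists were assigned by the marks for with and without in their names and in the sample titles. The input libraries were not used here.

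Genes and promoter windows came from RefSeq tables (GRCm38.p6). A gene was marked when a peak lay within 1 kb of it, or 5 kb where stated, or inside it. Sets were described by counts with exact Clopper-Pearson intervals; for a count of 0 the limit given is 3 divided by the total. No enrichment test was made. Marks from the overlap function and from bedtools 2.31.1 differed for 0 genes, and the function was tested on simulated data. Software was matplotlib 3.10.9, SciPy 1.17.1, pandas 2.3.3, numpy 2.4.6 and Python 3.11.15. Alternatives were windows of 500 bp and 5 kb, gene borders alone, scores at or above the joint median (61.6) or of at least 100, lists of equal length, 1 gene per 100 kb, no receptor genes, and other overlaps. The members, lists and alternatives were chosen with earlier results of these data known. The length limit and the older symbols were added after the data were seen. Named are the members with a peak within 5 kb, a fixed reference set (Krt85 was not matched), the members with the most CpG, and up to 8 marked genes of each comparison list. Neighbouring genes at the peaks were named after their values were seen.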

Additional observations from a re-analysis of the deposited data

How the results depend on the processing

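Of the recomputed values on the members, 9 moved past the limit set for them (for a share, its 95% interval). Most others say little of stability: a family count of 0 had to stay 0 where a setting only removes peaks or narrows the window, and lists of equal length left the induced list as it was. The induced share of 0.667% became 0% with 1 gene per 100 kb, since Tchh was not among the 39 members kept. The non-induced share of 0.667% became 0% at scores at or above the joint median, at scores of at least 100, with lists of equal length and with 1 gene per 100 kb. The non-induced share of Krtap genes (1.79%) became 0% in the first 3 of these settings, because the Krtap27-1 peak scores 59.0. The number of non-induced peaks within 5 kb of members was 1 at the joint median, against 2. The induced share was 0.667% also within 500 bp, at borders and at both score settings. No peak within 5 kb of a member overlapped one of the other list, also with a gap of up to 1 kb or an overlap of 50%. These were only 4 induced and 2 non-induced peaks. The share of all peaks that overlap the other list was not counted, so this cannot be read as a trait of the members. With a peak on the promoter window itself no member was marked, so members with a peak have no CpG value there. Adding 2 genes with older Krt or Krtap symbols gave 0.658% in both lists. The share of all genes with an induced peak ranged from 5.19% (scores of at least 100) to 21.4% (5 kb), and with a non-induced peak from 0.612% to 15.3% (1 gene per 100 kb). No paired analysis was possible because each condition has 1 list. With 150 members, shares up to 3.66% lie within the interval of 1 marked member.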

Other observations

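Between the near-identical genes Sprr2a1 and Sprr2a3 both lists had peaks, and none overlapped a peak of the other list. The share of all peaks that overlap the other list was not counted, so the lack of overlap cannot be read as a trait of this locus. Only the induced peak of score 66.4 and the non-induced peak of score 75.9 lay within 1 kb of each other. The induced list had peaks at 92237897 to 92239329 (score 66.4) and 92272845 to 92274591 (score 105) on chromosome 3, the first 11.3 kb from Sprr2a2 and the second 10.7 kb from Sprr2a3. The non-induced list had peaks at 92230513 to 92231985 (score 175) and 92235665 to 92236933 (score 75.9), 8.02 kb and 13.2 kb from Sprr2a1. The peak of score 175 ranked 47th of 10532 non-induced peaks and was the highest of that list in any of the loci. The widths of these 4 peaks, 1269 to 1747 bp, were above the median widths of their lists, 758 bp induced and 586 bp non-induced. No source used here says how reads in such copies were placed, and the part of this in these peaks was not tested.

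The lists differed in which lay nearer to the members. All 26 members on chromosome 15, all 5 on chromosome 7 and all 3 on chromosome 10 had their nearest peak in the induced list, and all 24 on chromosome 16 in the non-induced list. On chromosome 3 the induced list was nearer for 8 of 41 members, and on chromosome 11 for 10 of 50. Over all members it was nearer for 34.7%, and over all protein-coding genes for 53.8%. Neighbouring members often share their nearest peak, and the difference was not tested.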
